A study of Mus musculus with 12 samples.

Results

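The genes described here encode the regulatory proteins of the cardiac thin filament: troponin T (Tnnt1, Tnnt2), troponin I (Tnni1, Tnni3), troponin C (Tnnc1), tropomyosin (Tpm1, Tpm2) and the pointed-end proteins tropomodulin 1 (Tmod1) and leiomodin 2 (Lmod2). They were chosen by gene symbol, skeletal and cardiac isoforms alike. All 9 were among the 21783 genes listed in the deposited count table, and all 9 had values in every library and passed the filter on low counts. Female mouse embryos of embryonic day 10.5 gave the hearts. WT embryos were Ddx3x fl/fl, with no Cre named for them in the labels, and in Ddx3x CM-KO embryos the floxed Ddx3x gene was deleted with Tnnt2-Cre. Ddx3x is an X-linked gene for a DEAD-box RNA helicase that acts in translation initiation. There were 3 pools per genotype, each of 20 hearts, and each pool gave an RNA library and a library of ribosome-protected footprints, which made 12 libraries in 4 groups.

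The thin filament is a polymer of actin with tropomyosin along its grooves and a troponin complex at regular steps. Troponin T anchors the complex to tropomyosin, troponin I inhibits the binding of myosin to actin, and calcium binding to troponin C relieves that inhibition. Tropomodulin caps the pointed end of the filament, and leiomodin 2 lets filaments grow there. In the mouse, Tnnt2 and Tnni3 are the cardiac isoforms, while Tnnt1 and Tnni1 are the slow skeletal isoforms. The embryonic heart expresses Tnni1 as its main troponin I, and Tnni3 takes over around and after birth. The Cre used here is named for Tnnt2, one of the 9 genes, and it acts in cardiomyocytes, so the other cells of each heart keep their floxed alleles.

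Since the series asked about translation initiation, the bases around the annotated start codon are shown for each gene. The runs were read from the GENCODE vM39 transcript with the longest coding sequence, on the sense strand, and the capitals mark the start codon. Whether this transcript is the main one of each gene in the heart was not tested.
Tnnt1: ctctccaggATGtcagacacc
Tnnt2: gccgagagcATGtctgacgcc
Tnni1: gccaccaccATGccggaagtt
Tnni3: gagatcatcATGgctgatgag
Tnnc1: gtcgccagaATGgatgacatc
Tpm1: accgccaccATGgacgccatc
Tpm2: accgcagccATGgacgccatc
Tmod1: cctcacacaATGtcctacaga
Lmod2: gccgggaccATGtctacgttt
A purine stood 3 bases before the ATG in 9 of 9 genes, against 86.4% of 13549 genes tested in both assays with an annotated start codon. The base after the ATG was guanine in 4 of the 9 (Tnni3, Tnnc1, Tpm1 and Tpm2), against 52.5% of those genes. Both features were present in these 4 genes, or 44.4%, against 45.1% of all.

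The 5′ untranslated regions of these transcripts ranged from 10 bases in Tnni3 to 1207 in Tpm2, around a median of 266 over 13856 genes. Their GC content was below the 63.6% median in 7 of the 9 genes and above it in Tpm1 (66.5%) and Tpm2 (65.2%). The RNAfold minimum free energy per base could be set beside other genes for 7 members with a region of 20 to 1000 bases. It was -0.25 kcal/mol per base in both Tnnt1 and Lmod2 and -0.26 in Tnnc1, less stable than in 92.3%, 91.8% and 90.1% of the 12449 regions folded in their order. Tpm1 (-0.45) and Tmod1 (-0.42) folded more stably than the median of -0.39. Coding sequence filled 78.0% of the Tnnt1 transcript, 90.8% of Tnni3 and 89.3% of Tnnc1, against a median of 47.5%.

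The troponin genes lie in tandem pairs. Tnnt1 (chromosome 7, 4507567 to 4519381, minus strand, GRCm39) and Tnni3 (chromosome 7, 4521300 to 4527228, minus strand) were 1918 bases apart. Tnni1 (chromosome 1, 135707172 to 135738727, plus strand) and Tnnt2 (chromosome 1, 135763738 to 135780315, plus strand) were 25010 bases apart. The other genes are Tnnc1 (chromosome 14, 30930232 to 30933708, plus), Tpm1 (chromosome 9, 66929870 to 66956953, minus), Tpm2 (chromosome 4, 43514697 to 43524949, minus), Tmod1 (chromosome 4, 46038541 to 46116036, plus) and Lmod2 (chromosome 6, 24597685 to 24605753, plus). Exons of Tnni3 overlap those of Dnaaf3 on the same strand over 394 bases, and exons of Tmod1 overlap those of Tstd2 on the other strand over 1305. Exons of Tpm1 and Tnnt1 overlap antisense non-coding RNAs over 370 and 138 bases. The sources used here do not give the strand setting of the authors' counting, so reads in these stretches cannot be assigned. Of the runs of 30 bases in the coding sequences, 9 of 988 in Tpm1 and 6 of 853 in Tpm2 also occurred in another gene, and none did in the other 7 members. Coding sequences of the paralogs were 71.7% identical for Tnnt1 and Tnnt2, 70.1% for Tnni1 and Tnni3 and 76.6% for Tpm1 and Tpm2.

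Counts in genes amounted to 14.7 to 19.9 M per RNA library and 7.31 to 14.3 M per footprint library. Between 0.298 and 0.329% of the RNA counts and between 0.580 and 0.727% of the footprint counts fell on the 9 genes, and the fewest reads of a gene in a library were 280 footprints of Tnnt1. Levels are CPM, counts scaled to the size of the library, after TMM scaling within an assay. Ddx3x itself, the deleted gene, had RNA at 293, 303 and 311 CPM in WT against 280, 215 and 221 in CM-KO, with a log2 fold change of -0.34 (edgeR adjusted p = 0.0883). Counts on Y-linked genes set CM-KO pools apart from WT. Uty had 174, 108 and 11 RNA counts in CM-KO pools 1, 2 and 3 and was blank in every WT pool. Ddx3y had 2, 2 and 0 RNA counts in WT against 106, 64 and 4 in CM-KO. All hearts were labelled female, so results are also given without CM-KO pools 1 and 2. These reads went with genotype, so their part in the results cannot be told apart from it. Summed RNA of 14 cardiomyocyte markers, none of them a member, was 20290 to 22682 CPM in WT against 22673 to 24492 in CM-KO, with overlap. By edgeR 3 of the 14 were called higher and 2 lower in RNA, beside 4.37% of all genes called, so this sum joins opposite changes. Their summed footprints were 41280 to 42868 CPM in WT against 37157 to 45643 in CM-KO. These overlapped, with 1 marker called lower, beside 0.23% of all genes called. Summed footprints of 10 erythroid markers were 42707 to 56871 CPM in WT against 69006 to 88392 in CM-KO, without overlap. Their summed RNA was 8672 to 13882 CPM in WT against 12577 to 15778 in CM-KO, with overlap. By edgeR 3 of the 10 were called higher in RNA and 0 in footprints, beside 4.37% and 0.23% of all genes called. The part of these markers in the results below was not tested. Since whole hearts were pooled, fewer cells of a type and less RNA per cell cannot be told apart.

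Troponin T was the subunit with a called change, in its slow skeletal isoform. Tnnt1 RNA stood at 30.9, 25.6 and 29.3 CPM in WT pools 1, 2 and 3 and at 41.5, 51.5 and 42.8 in CM-KO. Every CM-KO pool lay above every WT pool. The RNA level rose 1.58-fold, a log2 fold change of 0.66 (SE 0.10), with an adjusted p of 0.00502 by edgeR's quasi-likelihood test over 17147 genes. Footprints of Tnnt1 stood at 42.7, 38.0 and 34.7 CPM in WT and at 70.2, 82.9 and 73.0 in CM-KO. The groups were again apart, and the rise was 1.96-fold (log2 fold change 0.97, SE 0.10, edgeR adjusted p = 0.00786 over 15249 genes). A higher log2 fold change than that of Tnnt1 was found in 0.968% of genes in RNA and in 0.223% in footprints. The authors' deposited table gave Tnnt1 a log2 fold change of 0.65 for RNA (adjusted p = 1.94e-05) and one of 0.97 for footprints (adjusted p = 9.48e-11).

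The Tnnt1 call was lost when some pools were left out. Without CM-KO pools 1 and 2 the RNA log2 fold change was 0.58 with an edgeR adjusted p of 0.118, and that of footprints was 0.93 with an adjusted p of 0.0302. In that fit the single CM-KO pool left is assumed to vary like the WT pools. The footprint call was lost when WT pool 2 was left out (0.97, adjusted p = 0.175) or CM-KO pool 3 was (1.00, adjusted p = 0.053). Tnnt1 is also made in slow skeletal muscle, so a list of skeletal muscle markers was read beside it. The list was not specific to slow muscle and includes the fast skeletal genes Tnnt3 and Tnni2. Of the 12 skeletal muscle markers 8 had values, and their summed RNA was 31.4 to 44.1 CPM in WT against 34.4 to 40.4 in CM-KO, with overlap. Their summed footprints were 66.8 to 85.8 CPM in WT against 69.4 to 77.8 in CM-KO. None was called, of 8 tested in RNA and 7 in footprints, beside 4.37% and 0.23% of all genes. The part of skeletal muscle in the Tnnt1 values was not tested. The myogenic factors Myod1, Myog, Myf5 and Myf6 were not listed under these symbols in the deposited count table. Scaled to the cardiomyocyte markers instead of TMM, the log2 fold change of Tnnt1 was 0.52 in RNA and 1.00 in footprints, with the call kept in both.

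Tnnt2, the cardiac troponin T, did not pass the test. Its RNA was 513, 467 and 496 CPM in WT pools 1 to 3 and 527, 584 and 486 in CM-KO. The groups overlapped, and the log2 fold change was 0.11 (95% confidence interval -0.07 to 0.30, edgeR adjusted p = 0.621). Its footprints were 1247, 1183 and 1067 CPM in WT against 1302, 1598 and 1441 in CM-KO. Here every CM-KO pool was above every WT pool, with a log2 fold change of 0.31 (0.09 to 0.54, edgeR adjusted p = 0.368).

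The promoters of Tnnt1 and Tnnt2 are shown because the genotypes did not overlap in the balance of these isoforms, as described below. The windows run from 250 bases before to 50 after the RefSeq start site, on the gene's strand, in the build GRCm38.p6: chr7:4515926-4516225 (minus strand) for Tnnt1 and chr1:135836084-135836383 (plus strand, the first of the listed Tnnt2 start sites) for Tnnt2. Capitals mark matches, on either strand, to TATAAA, to the M-CAT element CATTCC, which TEAD factors bind, or to the CArG and MEF2 elements.
Tnnt1: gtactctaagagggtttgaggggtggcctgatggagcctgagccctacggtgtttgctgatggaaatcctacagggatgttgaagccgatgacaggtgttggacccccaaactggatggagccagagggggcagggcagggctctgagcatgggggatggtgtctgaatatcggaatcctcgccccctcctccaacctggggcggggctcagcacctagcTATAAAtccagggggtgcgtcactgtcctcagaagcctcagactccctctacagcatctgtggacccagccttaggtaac
Tnnt2: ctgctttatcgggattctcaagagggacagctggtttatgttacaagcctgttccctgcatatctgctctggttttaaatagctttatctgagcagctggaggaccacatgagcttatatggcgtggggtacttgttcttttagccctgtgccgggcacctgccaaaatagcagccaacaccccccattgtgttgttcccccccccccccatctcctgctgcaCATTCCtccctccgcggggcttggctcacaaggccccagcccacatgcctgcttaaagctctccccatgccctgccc
The Tnnt1 window held TATAAA from base -30, and 13.6% of 32851 RefSeq promoters of the same length held these letters. The Tnnt2 window held CATTCC from base -27, against 14.7% of promoters. CATTCC was also found, on one strand or the other, in the windows of Tnnc1 (base -58), Tpm1 (-56) and Tmod1 (-163). The letters AGATAA, which GATA factors bind, were in the Tnnt2 window (base -166) and in 11.2% of promoters. No window of the 9 genes held a CArG or MEF2 match, which 1.63% and 3.19% of promoters held. E-boxes (CANNTG) were in 72.3% of promoters, and the Tnnt1 window had 2 and the Tnnt2 window 5. Overlaps between different motifs were not removed.

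Troponin I gave values below WT in RNA, with no call. Tnni1 RNA was 632, 597 and 603 CPM in WT pools 1 to 3 and 544, 578 and 516 in CM-KO. All CM-KO pools were below all WT pools, with a log2 fold change of -0.16 (95% confidence interval -0.32 to -0.0029, edgeR adjusted p = 0.298). Tnni1 footprints were 1179, 1052 and 1088 CPM in WT against 822, 1062 and 978 in CM-KO, with overlap through pool 2 of each genotype (-0.21, edgeR adjusted p = 0.62). Tnni3, the isoform of the later heart, had RNA at 157, 140 and 147 CPM in WT against 127, 138 and 122 in CM-KO. These groups did not overlap either, at a log2 fold change of -0.20 (edgeR adjusted p = 0.191). Tnni3 footprints were 278, 245 and 253 CPM in WT against 223, 276 and 278 in CM-KO, which overlapped, with a log2 fold change of 0.0035 (-0.22 to 0.22).

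Troponin C in the heart comes from Tnnc1, which slow skeletal muscle shares. Tnnc1 RNA was 265, 259 and 262 CPM in WT pools 1 to 3 and 235, 258 and 232 in CM-KO. The CM-KO pools lay just below the WT pools, with pool 2 at 258.3 against a lowest WT value of 258.7, and the log2 fold change was -0.12 (edgeR adjusted p = 0.493). Footprints of Tnnc1 were 1252, 1214 and 1087 CPM in WT against 1345, 1438 and 1071 in CM-KO. They overlapped, since CM-KO pool 3 had the lowest value of all 6 (0.12, edgeR adjusted p = 0.867). Without CM-KO pools 1 and 2 the footprint value was -0.14.

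Tropomyosin values were above WT in both assays, without a call. Tpm1, the main striated muscle tropomyosin of the heart, had 1290, 1214 and 1149 CPM of RNA in WT against 1299, 1341 and 1336 in CM-KO. The groups did not overlap, the log2 fold change was 0.12 (edgeR adjusted p = 0.516), and it was -0.02 when scaled to the cardiomyocyte markers. Its footprints, 2387, 2380 and 2045 CPM in WT against 2418, 2638 and 2442 in CM-KO, also stood apart (0.14, edgeR adjusted p = 0.767). Tpm2, known for slow skeletal and smooth muscle, had 65.1, 59.9 and 57.7 CPM of RNA in WT against 67.1, 73.4 and 68.8 in CM-KO. The footprint values of Tpm2 were 62.8, 66.8 and 61.8 CPM in WT against 70.2, 87.1 and 75.8 in CM-KO. Both sets were apart, with log2 fold changes of 0.20 for RNA (edgeR adjusted p = 0.179) and 0.29 for footprints (edgeR adjusted p = 0.348). The summed RNA of 6 smooth muscle markers ran from 1464 to 1693 CPM in WT against 1292 to 1427 in CM-KO. It was lower in every CM-KO pool with 0 markers called by edgeR, and the footprint sums overlapped. Most of the RNA sum came from Acta2, with 18205 counts in WT pool 1 beside 3984 for Tagln, the next. The median log2 fold change of the 6 markers was -0.01 in RNA and 0.05 in footprints. Their part in the Tpm2 values was not tested.

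At the pointed end, Tmod1 RNA was 266, 241 and 238 CPM in WT pools 1 to 3 and 209, 222 and 210 in CM-KO. Every CM-KO pool was lower, at a log2 fold change of -0.22 (-0.37 to -0.06, edgeR adjusted p = 0.13). This gene was called by DESeq2 (-0.22, adjusted p = 0.0217) and in the authors' deposited table (-0.23, adjusted p = 0.0309), but not by edgeR with TMM scaling. Over all genes DESeq2 called 5.6% in RNA. Scaled to the cardiomyocyte markers, edgeR called Tmod1 RNA as well (-0.36, adjusted p = 0.0429). That scaling moved the median log2 fold change of all genes by -0.14, so part of this larger decrease is shared by all genes. It called 387 of 17147 genes, of which 36.7% were higher. Tmod1 footprints were 267, 248 and 226 CPM in WT against 200, 236 and 221 in CM-KO, which overlapped (-0.17, edgeR adjusted p = 0.654). CM-KO was the lower in each of the 3 same-numbered pairs, and with the pool number as a block the gene was still not called (-0.17, edgeR adjusted p = 0.444). Lmod2, whose product lengthens thin filaments in heart muscle, had 33.3, 29.9 and 32.6 CPM of RNA in WT against 28.5, 30.7 and 27.8 in CM-KO. Its footprints were 60.7, 58.8 and 54.1 CPM in WT against 46.9, 66.6 and 59.9 in CM-KO. Both overlapped, with log2 fold changes of -0.14 for RNA (edgeR adjusted p = 0.442) and 0.0051 for footprints.

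**Figure D1:**
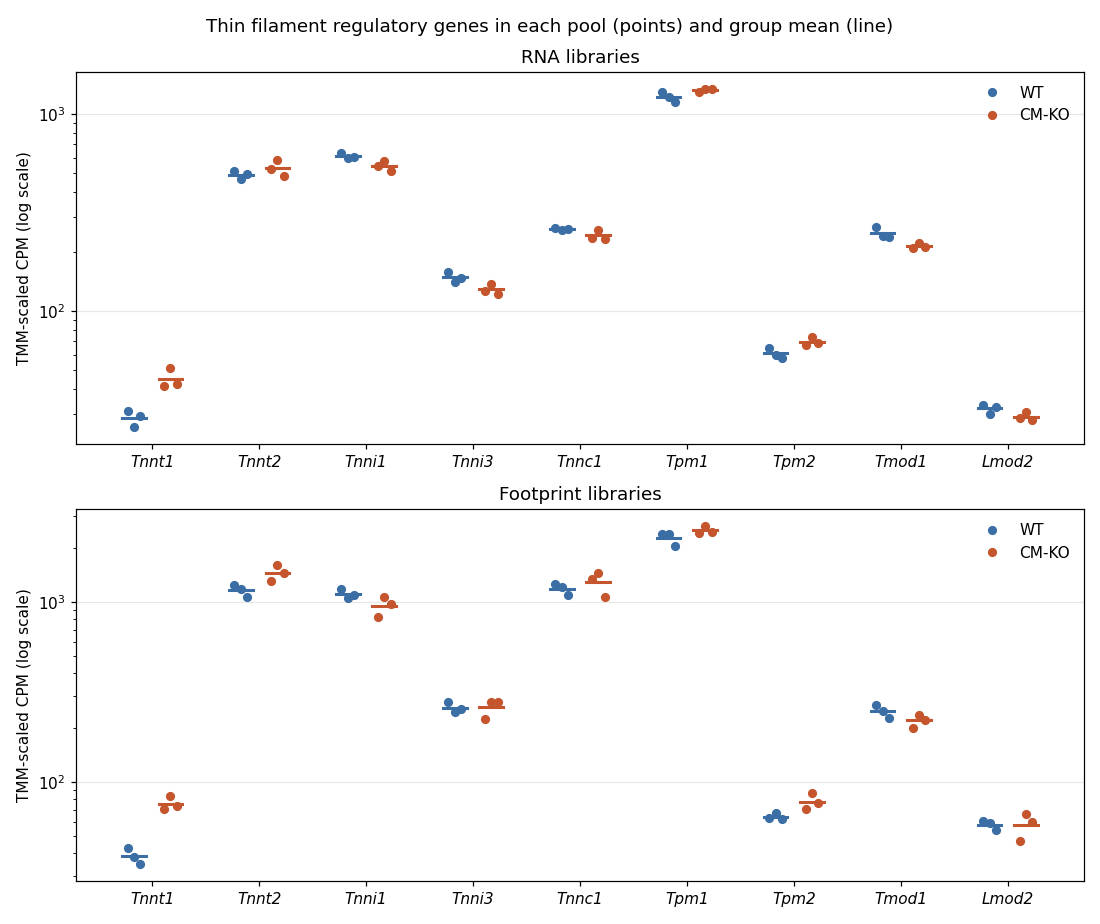
TMM-scaled CPM (log axis) of the 9 genes in RNA libraries (upper panel) and footprint libraries (lower panel), with a point for each of 3 pools per genotype and a line at the group mean. Tnnt1 is the gene whose groups are farthest apart, at 25.6 to 30.9 CPM of RNA in WT against 41.5 to 51.5 in CM-KO.

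Over the 9 genes, 1 was called in RNA, and it was higher. The background was 4.37% of genes called, and 3.57% called higher. In footprints 1 of 9 was called, again higher, against 0.23% of genes called and 0.0853% called higher. Of all RNA calls 81.6% were higher, a share that was 63.6% with upper quartile scaling, 64.3% with library totals only and 36.7% when scaled to cardiomyocyte markers. Of the footprint calls 37.1% were higher, and 22.5% and 68.4% under the last 2 of these scalings. With the pool number as a block, the footprint fit called 203 genes instead of 35, and Tnnt1 remained the 1 member called. WT and CM-KO RNA pools were fully apart for 7 of the 9 genes, against 21.7% of genes tested. Of these, 3 were higher (Tnnt1, Tpm1 and Tpm2, against 13.3%) and 4 lower (Tnni1, Tnni3, Tnnc1 and Tmod1, against 8.43%). Footprint pools were apart for 4 of the 9, all higher (Tnnt1, Tnnt2, Tpm1 and Tpm2), against 14.8% of genes, 7.74% higher and 7.05% lower. The median log2 fold change of the 9 was -0.12 in RNA, beside 0.01 over all genes, and 0.12 in footprints, beside -0.01.

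**Figure D2:**
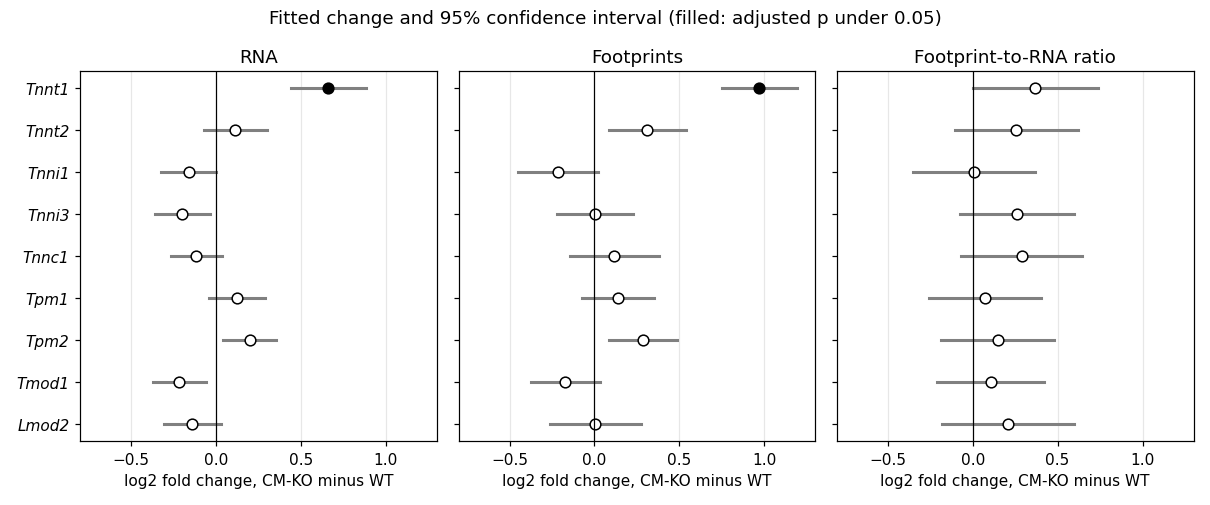
Fitted log2 fold change of CM-KO against WT (x axis) with its 95% confidence interval for each gene in RNA, in footprints and in the footprint-to-RNA ratio, with filled points at an adjusted p under 0.05. Only Tnnt1 is filled, at 0.66 in RNA and 0.97 in footprints, and in the ratio all 9 points lie between 0.01 and 0.37.

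The isoform balance within a subunit needs no scaling between libraries, and it was tested as the log2 ratio of counts in each library. The log2 ratio of Tnnt1 to Tnnt2 in RNA was -4.05, -4.19 and -4.08 in WT pools 1 to 3 and -3.66, -3.50 and -3.51 in CM-KO. In footprints it was -4.87, -4.96 and -4.94 in WT against -4.21, -4.27 and -4.30 in CM-KO. All CM-KO ratios were above all WT ratios in both assays, by 0.55 on average in RNA and 0.66 in footprints. Each comparison had a two-sided exact permutation p of 0.1, the smallest that 3 against 3 pools can give, and 0.15 after adjustment over the 6 ratios tested.

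The log2 ratio of Tnni3 to Tnni1 in RNA was -2.01, -2.09 and -2.04 in WT against -2.10, -2.07 and -2.08 in CM-KO, which overlapped (difference -0.04, exact permutation p = 0.3). Footprints gave -2.08, -2.10 and -2.11 in WT against -1.88, -1.94 and -1.82 in CM-KO. Here the groups were apart, with a difference of 0.22 toward Tnni3 (exact permutation p = 0.1, adjusted 0.15). For Tpm2 to Tpm1 the mean log2 ratio moved from -4.32 ± 0.02 (SD, n = 3) to -4.25 ± 0.05 in RNA, a difference of 0.07 without overlap (exact permutation p = 0.1). Footprints overlapped for this pair, at -5.15 ± 0.10 in WT and -5.01 ± 0.09 in CM-KO (exact permutation p = 0.2). None of the 6 ratios reached an adjusted p under 0.05, which this number of pools cannot give.

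**Figure D3:**
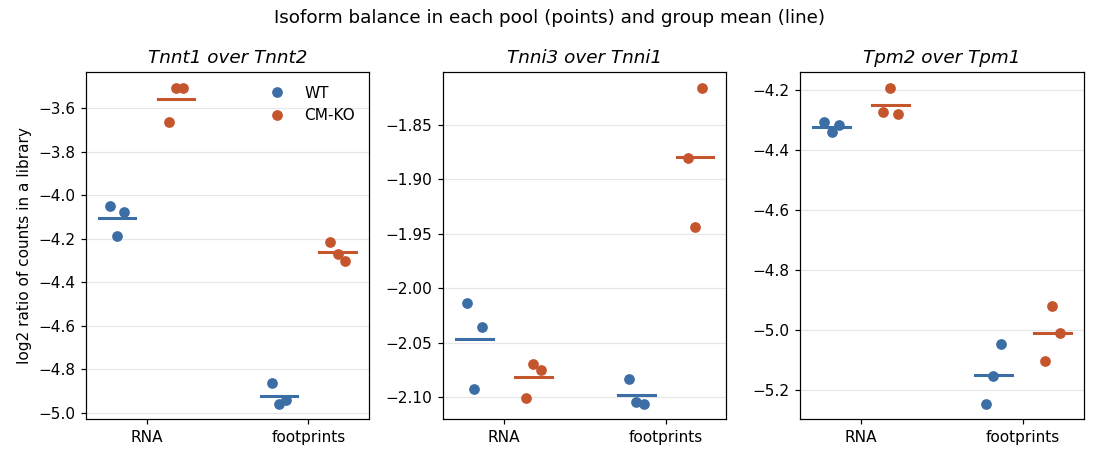
Log2 ratio of the counts of paired isoforms in each library (y axis), with points for pools and lines for group means, in RNA and in footprints. The Tnnt1 to Tnnt2 ratio is higher in every CM-KO pool, and the Tnni3 to Tnni1 ratio is apart in footprints (-2.11 to -2.08 in WT, -1.94 to -1.82 in CM-KO) but not in RNA.

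Levels of different genes were compared only per kilobase, over the union of annotated exons for RNA and of coding sequence for footprints. These lengths were not checked against the transcripts in use in the heart, so the order among genes may depend on them. In WT RNA, Tnnc1 (361 ± 4 CPM per kilobase, SD, n = 3) and Tnni1 (358 ± 11) led and did not differ beyond their spread. Tpm1 (238 ± 14), Tnnt2 (192 ± 9), Tnni3 (81.8 ± 4.6) and Tmod1 (57.7 ± 3.6) followed. Tnnt1 (16.4 ± 1.6), Tpm2 (16.4 ± 1.0) and Lmod2 (13.3 ± 0.7) came last, and the first pair of these did not differ. The order depended on the length taken: over the single transcript with the longest coding sequence, Tpm1 led in WT RNA at 741 CPM per kilobase, before Tnni1 at 531 and Tnnc1 at 364.

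Per kilobase of coding sequence, WT footprints were highest for Tnni1 (1972 ± 117 CPM per kilobase) and Tnnc1 (1828 ± 133), whose pools overlapped. These values divide by the coding sequence of all transcripts together; by the single transcript Tpm1 had the highest mean, at 2233 ± 192, and its pools overlapped those of Tnni1. Tpm1 (1499 ± 129), Tnnt2 (1082 ± 84), Tnni3 (272 ± 19), Tmod1 (160 ± 13) and Tpm2 (51.7 ± 2.1) came next, before Tnnt1 (38.5 ± 4.0) and Lmod2 (35.1 ± 2.0), which overlapped. In CM-KO, Tnnt1 was at 75.4 ± 6.7 and Tpm2 at 63.0 ± 7.0 CPM per kilobase. By the single transcript these stood at 87.8 and 88.1, so their order in CM-KO depended on the length rule. Of the adult fast skeletal genes of the same families, Tnnt3 had WT levels of 1.99 ± 0.14 CPM per kilobase in RNA and 3.96 ± 0.99 in footprints, below all 9 genes. Tnni2 had 12.1 ± 1.6 in RNA and 39.3 ± 4.7 in footprints, overlapping Lmod2 in both and Tnnt1 in footprints.

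Summed over its genes, Tnnt3 and Tnni2 included, troponin T RNA was 210 ± 11 CPM per kilobase in WT and 236 ± 22 in CM-KO, with overlap. The troponin I sum was 451 ± 17 in WT and 400.4 ± 22.5 in CM-KO, and each CM-KO pool was lower. The RNA ratio of troponin I to troponin T was 2.14, 2.21 and 2.10 in WT pools 1 to 3 and 1.72, 1.63 and 1.75 in CM-KO. In footprints this ratio was 2.02, 1.90 and 2.18 in WT against 1.35, 1.41 and 1.46 in CM-KO. The groups were apart in both assays and under both length rules, and the ratios, which were formed after the files were seen, were not tested. The ratio of troponin C to troponin T was 1.72 ± 0.07 in WT RNA and 1.42 ± 0.05 in CM-KO, without overlap, but overlapped in footprints (1.63 ± 0.02 and 1.40 ± 0.22). Tnnt1 made up 7.81 ± 0.36% of troponin T RNA per kilobase in WT and 11.01 ± 0.62% in CM-KO, and 3.42 ± 0.11% and 5.30 ± 0.15% of its footprints. Tnni3 made up 11.9 ± 0.1% of troponin I footprints in WT and 13.6 ± 0.5% in CM-KO.

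**Figure D4:**
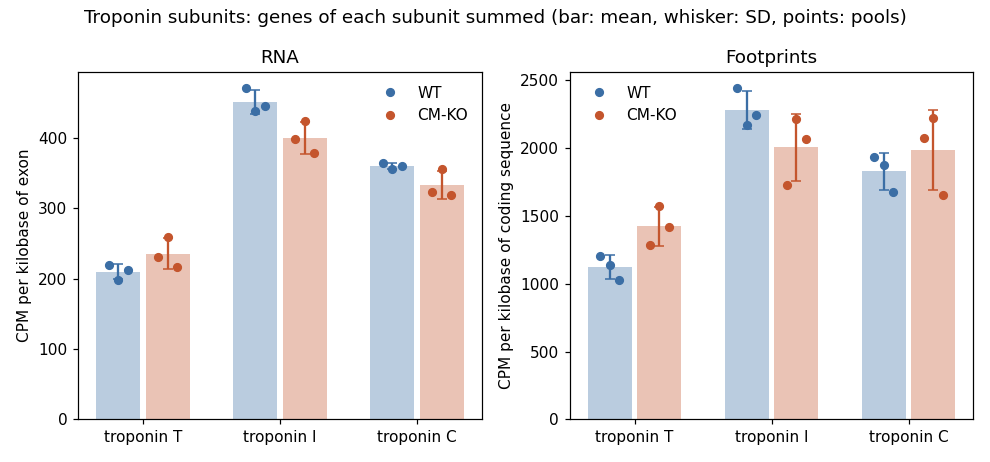
CPM per kilobase summed over the genes of each troponin subunit in RNA (left, per exon length) and footprints (right, per coding length), with bars at the mean, whiskers for the SD and points for 3 pools. Troponin I RNA is lower in every CM-KO pool (400.4 against 451), and troponin T footprints are higher in every CM-KO pool (1424 against 1125).

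The footprint-to-RNA ratio, called ribosome occupancy in the labels, relates the footprints of a gene to its RNA. It was not corrected for length, so its order among genes may depend on the share of coding sequence in each transcript. Only its change and, with that limit, its order can be read. All 9 genes had a WT ratio above that of the median gene, whose log2 ratio was -0.42. Tnnc1 had the highest, with WT log2 ratios of 2.24, 2.23 and 2.05 in pools 1 to 3, above 99.7% of 15231 genes. Tnnt2 followed at 1.24 ± 0.12 (SD, n = 3), above 96.2% of genes. Tpm1 (0.90 ± 0.07), Tnni1 (0.86 ± 0.04), Lmod2 (0.85 ± 0.12) and Tnni3 (0.80 ± 0.02) did not differ beyond their spread. Tnnt1 stood at 0.42 ± 0.16, Tpm2 at 0.07 ± 0.11 and Tmod1 at -0.01 ± 0.06, above 69.4% of genes. Tmod1 and Tpm2 also had the smallest share of coding sequence in their transcript (37.8% and 41.5%). That of Tnnc1 was 89.3%, above 95.5% of genes, and that of Tnni3 was larger still. These shares are those of the transcript with the longest coding sequence, which may not be the main one in the heart. The part of these shares in the order, the rank of Tnnc1 included, was not tested. The sources used here do not say whether only footprints in coding sequence were counted. The authors' deposited ratio for Tnnc1 was 5, 4.59 and 4.03 in WT against 6, 5.37 and 4.49 in CM-KO.

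No member was called for a change of this ratio, against 0.479% of genes. By edgeR 1 of the 9 (Tnnt1) had an unadjusted p under 0.05, against 6.77% of all genes, and DESeq2 called none, against 0.657%. Tnnt1 had log2 ratios of 0.46, 0.56 and 0.24 in WT pools 1 to 3 and 0.75, 0.68 and 0.77 in CM-KO. The groups did not overlap, which held for 1 of the 9 genes and for 16.2% of all genes tested. The fitted change was 0.37 (95% confidence interval 0.002 to 0.73, edgeR adjusted p = 0.737). The 9 fitted changes were all above 0, with a median of 0.20 beside 0.03 over all genes. Without WT pool 3 these sizes fell, and the median over all genes fell as well, to -0.055. In that fit Tnnt1 was at 0.18, Tnnc1 at 0.13, Tnni3 at 0.15, Tnnt2 at 0.09, Tpm2 at 0.06 and Lmod2 at 0.04. Tnni1, Tpm1 and Tmod1 were below 0 there. Tnni1 and Tpm1 were also below 0 without CM-KO pool 2, where Tpm2 was at 0.05 and Lmod2 at 0.09, and Tnni1 without CM-KO pool 3. Tnnc1 (0.29, -0.07 to 0.64), Tnni3 (0.26, -0.08 to 0.60) and Tnnt2 (0.26, -0.10 to 0.62) came after Tnnt1, and Tnni1 was at 0.01 (-0.35 to 0.37), and below 0 with upper quartile scaling or library totals only. The main fit of the ratio held no term for the pool, although both libraries of a pool come from the same hearts. With the pool as a block, Tnnt1 was at 0.37 with an SE of 0.13, beside 0.17 in the main fit, and was not called. In the main fit the median half-width of the unadjusted 95% interval over all genes was 0.41. A call also needs an adjusted p under 0.05, so for a typical gene changes of this size or somewhat larger could go uncalled.

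**Figure D5:**
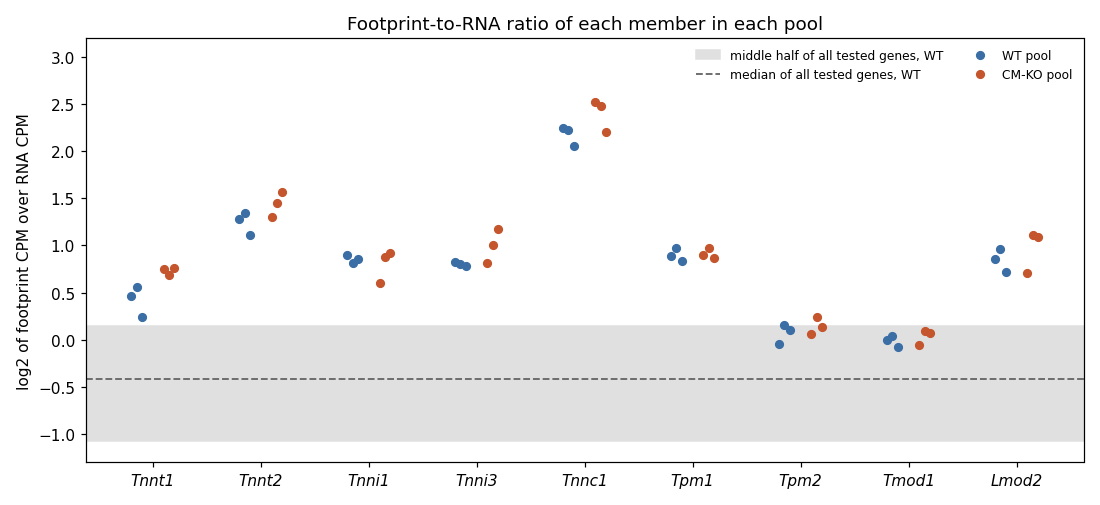
Log2 of footprint CPM over RNA CPM (y axis) for each gene, with a point for each of 3 pools per genotype, and with the median (dashed line) and the middle 50% (grey band) of 15231 genes in WT. Tnnc1 lies highest at 2.05 to 2.24 in WT, and Tpm2 and Tmod1 lie nearest to the median gene.

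Other genes of the thin filament were read from a list of 28, of which 26 were listed and 25 were tested. By edgeR with TMM scaling and all pools none was called in RNA, footprints or the ratio. At an unadjusted p under 0.05 there were 7, 5 and 0, beside 16.1% of all genes in RNA and 8.86% in footprints. DESeq2 called 4 in RNA (Cap2 and Acta2 lower, Acta1 and Fhod3 higher), 1 in footprints (Cap2, lower), where it called 1.21% of all genes, and 0 in the ratio. Other edgeR settings also called some in RNA: Cap2 under upper quartile scaling, library totals only and marker scaling, Acta2 under marker scaling, and Acta1 without WT pool 1 or without CM-KO pool 1. Their median log2 fold changes were 0.04, 0.04 and 0.09. Cardiac actin, Actc1, had 5035, 4214 and 4061 CPM of RNA in WT against 4431, 4805 and 4891 in CM-KO (0.09, edgeR adjusted p = 0.821). Skeletal actin, Acta1, had 401, 345 and 313 CPM of RNA in WT against 391, 491 and 531 in CM-KO, which overlapped (0.42, edgeR adjusted p = 0.1). Its footprint-to-RNA ratio had a fitted change of -0.43 (-0.89 to 0.03). The actin regulator Cap2 had 244, 228 and 238 CPM of footprints in WT against 174, 194 and 187 in CM-KO, which were apart (-0.35, edgeR adjusted p = 0.124). With the pool number as a block, and under upper quartile scaling or library totals only, edgeR called this footprint decrease. Lmod3, a leiomodin of skeletal muscle, had -0.37 in RNA (edgeR adjusted p = 0.352) and 0.40 in the ratio (adjusted p = 0.899). Nrap, an actin-anchoring protein of growing myofibrils, had 0.36 in RNA (edgeR adjusted p = 0.165). Actg2 (smooth muscle actin) and Xirp2 (an actin-binding repeat protein) had 0.44 and 0.36 in footprints and no call, and Actg2 had 0.31 in the ratio.

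Patterns were compared by the correlation of log2 CPM over the 12 libraries, centred within each assay, among 8961 genes with at least 10 CPM in both assays. The libraries come from 6 pools, and the genotype difference itself enters each coefficient, so the values are descriptions. Genes most like Tnnt1 were the cell cycle inhibitor Cdkn1a (r = 0.98), the non-coding Snhg17 (0.97) and the peptide hormone gene Edn1 (0.95). Tmod1 was most like the muscle ubiquitin ligase Trim63 (0.96), and Tnni1 most like Skida1 (0.96), Fhl2 (0.95) and the muscle methyltransferase Smyd1 (0.94). Lmod2 was most like Fam222b (0.95), the myosin light chain Myl3 (0.95) and the muscle LIM protein Csrp3 (0.94). Among the 9 genes, Tnnt1 and Tpm2 (0.89), Tnnt2 and Tpm2 (0.88), and Tnnt1 and Tnnt2 (0.87) varied alike. A further set was Tnni1 with Tmod1 (0.89) and Tnni3 with Lmod2 (0.88). Tnnt1 ran against Tnni1 and Tmod1 (-0.56 each), and Tnnc1 was at most 0.42 with any of the others.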

How the data were processed

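Each pool of 20 hearts was lysed and split: RNA was heat-fragmented for RNA-seq, and RNase I digestion left ribosome footprints, per the labels' protocols. Reads of the authors were mapped to mm39 and counted per gene in a service provider's pipeline, as the labels' protocols say; the sources used here do not give aligner, annotation release, strand or counted part of the transcript. The deposited values used here are raw read counts, which the authors did not normalize. The deposited RPM columns, scaled to library size, did not enter the levels or tests. The authors' ratio of footprint to RNA coverage, and the log2 fold change and p-value columns of the authors, are quoted as theirs. A pool's values for a gene were blank unless its larger count was at least 11, and the 17165 genes with values in all 12 libraries entered the tests.

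Groups came from the labels. RNA and footprints were each tested, 3 pools against 3, with edgeR 4.0.16 (R 4.3.3; robust quasi-likelihood F-test, TMM, filterByExpr with a minimum count of 10 and total of 15), and the footprint-to-RNA ratio as the genotype by assay interaction over 12 libraries. P-values were adjusted by Benjamini-Hochberg over all genes, and a gene was called under 0.05. The pools are separate sets of hearts. Isoform ratios used counts plus 0.5 and an exact permutation test (SciPy 1.17.1); ratios per pool used CPM plus 0.5. Deviations of pools with the same number but different genotypes gave r = 0.44, 0.21 and 0.10 in footprints over 10210 genes. For RNA these were -0.15, 0.18 and -0.42. The check held no pools of different numbers, so it cannot show whether a number marks a pair. The main fit of the ratio held no term for the pool, although RNA and footprints of 1 pool share their hearts. Their deviations gave r = 0.61, 0.07 and 0.48 for WT pools 1 to 3, while the CM-KO pools had -0.08, 0.32 and 0.40. Gene IDs were matched to GENCODE vM39 on GRCm39 (21594 found, 189 not), promoters are from RefSeq, and folding used RNAfold (ViennaRNA 2.7.2). Alternatives were DESeq2 1.42.0, other scalings and filters, an Afp covariate, blocks and left-out pools. Afp, a liver and yolk sac marker, varied widely among pools of the same genotype. Its RNA was 49.6, 259 and 305 CPM in WT pools 1 to 3 and 90.0, 20.2 and 220 in CM-KO. Fits were tested on simulated data. Named were all 9 genes, Actc1, called genes of the thin filament list and its 3 largest changes per comparison, and the 3 most similar genes, with values for some; Tnnt3 and Tnni2 were added for their families, and the genes called by DESeq2 were named after their values were seen. The 9 genes and all lists were chosen with earlier results of these data known.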

Additional observations from a re-analysis of the deposited data

How the results depend on the processing

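Of 396 member log2 fold changes recomputed under alternatives, 358 kept their direction and side of the threshold, 3 lost and 2 gained a call, and 33 changed sign. The 54 recomputed isoform ratios kept their direction, and the exact test can pass the threshold for none of them. Genes called in RNA (750) were 126 without CM-KO pools 1 and 2, 294 with an Afp covariate, 387 scaled to cardiomyocyte markers, 367 with a replicate block, 252 in one model of 12 libraries and 207 to 783 without 1 pool; members called were 2 by DESeq2 and by marker scaling and 0 without CM-KO pools 1 and 2. Genes called in footprints (35) were 184 by DESeq2, 60 with upper quartile scaling, 89 with library totals only, 54 without CM-KO pools 1 and 2, 5 with Afp, 19 by marker scaling, 203 with the block, 80 in one model and 1 to 94 without 1 pool; members called were 0 to 1 without 1 pool. Genes called for the ratio (73) were 248, 325, 29, 5, 13, 40 and 198 under upper quartile scaling, library totals, no filter, without CM-KO pools 1 and 2, Afp, marker scaling and the replicate block, and 9 to 113 without 1 pool, with 0 members throughout. The cause was not tested.

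The replicate block changed no call of a member; paired sign-flip permutation of the isoform ratios gave p = 0.25, or 0.5 for Tnni3 to Tnni1 in RNA, and 3 pairs can give no less than 0.25. Marker scaling moved the median of all genes by -0.14 in RNA and by 0.12 in the ratio; Tmod1 RNA was then -0.36 (adjusted p = 0.0429). Signs changed for values that were not called. In RNA these were Tnnt2 (-0.018 without CM-KO pools 1 and 2, -0.030 by marker scaling) and Tpm1 (-0.017 by marker scaling). In footprints, under DESeq2, upper quartile, library totals, Afp and the block, Tnni3 was -0.00045, -0.018, -0.058, -0.029 and -0.00093, and Lmod2 was -0.0014, -0.017, -0.057, -0.054 and -0.0067; Tnnc1 was -0.14 without CM-KO pools 1 and 2. In the ratio, Tnni1 was -0.0020, -0.016, -0.066, -0.0074 and -0.0072 in the same order. Without 1 pool, footprints ranged from -0.046 to 0.10 for Tnni3 and from -0.10 to 0.13 for Lmod2, and the ratio from -0.10 to 0.14 for Tnni1, from -0.057 to 0.12 for Tpm1 and from -0.028 to 0.19 for Tmod1. Levels per kilobase moved beyond their spread with the single transcript length for 13 of the gene and assay pairs.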
